A study of Mus musculus with 10 samples.

Results

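The genes described here are 10 members of the BCL2 family, which decides whether a cell keeps its mitochondria intact or dies by apoptosis. They were taken as a fixed set of symbols and matched through their Ensembl identifiers, which gave 10 of the 49671 gene rows in the count table. Bcl2, Bcl2l1 (the BCL-XL gene), Mcl1 and Bcl2a1b (a copy of the A1 gene) are pro-survival. Bcl2l11 (BIM), Bbc3 (PUMA), Pmaip1 (NOXA) and Bid are pro-death genes of the BH3-only kind, and Bax and Bak1 encode the pore-forming effectors. All 10 are annotated as protein coding.

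Pro-survival proteins hold BAX and BAK in check, BH3-only proteins bind and neutralise them or activate the effectors, and BAX and BAK then open the outer mitochondrial membrane and release cytochrome c. Mast cells depend on growth factors for survival. Stem cell factor (SCF), which binds the receptor KIT, is known to keep them alive in part through AKT signalling, which holds FOXO transcription factors out of the nucleus, and Bcl2l11 is a well-studied FOXO target. Several members are also set by protein turnover and cleavage (MCL1 is short-lived, BID is activated by cleavage), which mRNA counts do not show.

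RNA was sequenced from bone marrow-derived mast cells (BMMCs) of wild-type C57BL/6 mice, a primary culture kept for 6 to 8 weeks in interleukin 3 (IL-3). Stimulation with SCF, TGF-β or both then lasted 72 h. For the libraries with IL-3 by itself the labels give no stimulation time. The 10 SmartSeq2 libraries formed 6 groups. SCF was combined with TGF-β at 1 ng/mL (called SCF plus low TGF-β, n = 2) or at 10 ng/mL (SCF plus high TGF-β, n = 2), or given by itself at 100 ng/mL (n = 2). TGF-β was given without SCF at 1 ng/mL (low TGF-β alone, n = 1) and at 10 ng/mL (high TGF-β alone, n = 1), and the last 2 libraries had IL-3 by itself (n = 2). The library of low TGF-β alone was numbered replicate 2 and that of high TGF-β alone replicate 1. Dose and replicate number can therefore not be told apart between these 2 libraries. Every culture had grown in IL-3, for which the labels state both 5 and 10 ng/mL. They state no SCF concentration for the combinations, nor whether IL-3 was kept during stimulation. Nothing in the labels shows that replicates came from separate cultures or animals, so the p-values reflect the spread among these libraries, which may be technical.

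Reads counted to genes ranged from 1237382 to 2323916 per library, and 3 counts corresponded to 1.29 to 2.42 CPM, counts scaled to a common library size. Mast cell markers were abundant and moved with the groups: the 8 genes summed to 54444 to 67784 CPM in the 4 libraries with SCF and TGF-β, 77056 to 90369 CPM with SCF, 53425 and 53548 CPM with TGF-β alone, and 64024 to 66932 CPM with IL-3. With TGF-β on SCF 3 (low) and 4 (high) of the 8 were called lower, and with TGF-β alone against IL-3 it was 3 lower and 1 higher. Of all genes, 2.75% (low) and 4.59% (high) were lower with TGF-β on SCF. With TGF-β alone against IL-3, 2.12% of all genes were lower and 1.36% higher. Markers of neutrophils summed to at most 1.6 CPM, those of dendritic cells to at most 0.8 CPM and those of macrophages to 10.5 to 18.4 CPM in all groups. The 3 basophil markers summed to 604 to 702 CPM with SCF and TGF-β and to 510 and 456 CPM with TGF-β alone. Of these, 2 of 3, Mcpt8 and Cd200r3, were called higher, where 13.3% of all genes were. Lymphocyte markers summed to 5.05 to 12.5 CPM with SCF and TGF-β, 3.50 and 7.56 CPM with SCF, 0.848 and 0.777 CPM with TGF-β alone, and 0.518 and 0.702 CPM with IL-3. Nearly all of that was Ncr1, the 1 gene of the 5 listed that passed the filter, which was called higher with SCF and TGF-β than with TGF-β alone, while Cd3e and Ms4a1 were at 0 in every library. Cell cycle genes moved with SCF: the 16 listed genes summed to 2055 to 2675 CPM in the 4 libraries with SCF and TGF-β, 1332 to 1569 CPM with SCF, 479 and 971 CPM with TGF-β alone, and 417 to 795 CPM with IL-3. Of 7 tested genes of RNA quality and stress, 4 were lower with SCF and TGF-β than with TGF-β alone, where 11.4% of all genes were. The part of these lists in the results was not tested. In bulk RNA, fewer cells expressing a gene and less RNA per cell cannot be told apart.

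Bcl2 had the highest CPM of the 10 genes in every library. Its level was 322 and 307 CPM with SCF plus low TGF-β, 345 and 320 CPM with SCF plus high TGF-β, 363 and 274 CPM with SCF, 383 and 290 CPM with low and high TGF-β alone, and 348 and 394 CPM with IL-3. All groups with replicates overlapped, apart from the IL-3 libraries, which lay above the libraries with SCF and TGF-β. No comparison called Bcl2. Its log2 fold changes lay between -0.22 and 0.18, and the 95% interval of SCF over IL-3 ran from -0.53 to 0.10. Of the exon bases of Bcl2, 6.1% lie opposite exons of D630008O14Rik, which had 99 to 224 counts per library.

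Mcl1 was similarly even, at 60.2 and 51.6 CPM with SCF plus low TGF-β, 64.8 and 48.3 CPM with SCF plus high TGF-β, 55.1 and 44.8 CPM with SCF, 50.9 and 57.5 CPM with low and high TGF-β alone, and 50.8 and 69.5 CPM with IL-3. The groups overlapped, and none of the 7 contrasts called it. For SCF over IL-3 the log2 fold change was -0.25 with a 95% interval from -0.71 to 0.21.

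Bcl2l1 (ENSMUSG00000007659, GRCm38 chr2:152780668-152831728, minus strand), which encodes BCL-XL, was highest with SCF and lowest with TGF-β alone. It stood at 109 and 120 CPM with SCF plus low TGF-β, 101 and 118 CPM with SCF plus high TGF-β, 128 and 141 CPM with SCF, 72.1 and 56.7 CPM with low and high TGF-β alone, and 88.6 and 105 CPM with IL-3. The libraries with TGF-β alone were the lowest 2 of the 10, and both SCF libraries the highest 2.

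Bcl2a1b had 0 counts in all 10 libraries. The A1 gene is present in mouse as several near-identical copies on chromosome 9, and its relatives Bcl2a1a, Bcl2a1d and Bcl2a1c, like the read-through annotation Gm29094, were also at 0 in every library. The coding sequence of Bcl2a1b (516 bases) was 97.9% identical to that of Bcl2a1a and 98.8% identical to that of Bcl2a1d. Of its 38-base windows, the length of 1 read, 84.5% occurred in other annotated transcripts, and 49.1% of its exon bases lay in exons of Gm29094. The count of 0 in a table of reads assigned to single genes is therefore uncertain as a level of A1 mRNA. Taken singly, only 15.5% of its windows could have told Bcl2a1b from the rest. Fragments were read from both ends, and pairs of windows were not examined. The first 90 coding bases of the 3 copies (GENCODE vM21 on GRCm38, 5′ to 3′ on the coding strand) show how little separates them, with the 6 positions at which any copy differs in capitals:
Bcl2a1b (chr9:89199360-89199449, plus strand): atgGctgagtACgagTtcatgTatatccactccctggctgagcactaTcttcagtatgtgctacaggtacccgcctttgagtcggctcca
Bcl2a1a (chr9:88957051-88957140, plus strand): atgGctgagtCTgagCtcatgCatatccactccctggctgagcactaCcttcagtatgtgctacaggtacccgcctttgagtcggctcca
Bcl2a1d (chr9:88731630-88731719, minus strand): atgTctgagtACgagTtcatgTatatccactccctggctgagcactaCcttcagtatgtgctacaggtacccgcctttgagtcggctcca

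Among the BH3-only genes, Bid was abundant and the other 3 were scarce. Bid (ENSMUSG00000004446, chr6:120891930-120916853, minus strand), whose product links death receptors and caspases to mitochondria, stood at 150 and 140 CPM with SCF plus low TGF-β, 174 and 133 CPM with SCF plus high TGF-β, 109 and 96.4 CPM with SCF, 159 and 182 CPM with low and high TGF-β alone, and 155 and 149 CPM with IL-3. The SCF libraries were the lowest 2 of the 10 and did not overlap any other group. Bid shares 17.7% of its exon bases with Bcl2l13 on the opposite strand, and the strand setting of the counting is not given in the sources used here.

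Bcl2l11 (ENSMUSG00000027381, chr2:128126038-128162547, plus strand) had the widest relative range of the 9 detected genes. It stood at 8.42 and 11.3 CPM with SCF plus low TGF-β, 9.38 and 1.63 CPM with SCF plus high TGF-β, 5.01 and 4.41 CPM with SCF, 24.6 and 31.9 CPM with low and high TGF-β alone, and 5.18 and 10.5 CPM with IL-3. These levels rest on 20 and 19, 21 and 3, 10 and 7, 29 and 41, and 10 and 15 counts in that order. The libraries with TGF-β alone lay above the other 8. They were also the shallowest, with 1295048 and 1237382 gene counts, and 4 eosinophil markers summed to 5.94 and 10.1 CPM in them, against at most 3.51 CPM elsewhere, nearly all of it Siglecf, with the granule genes Epx and Prg2 at 0 in all 10. The part of either in the Bcl2l11 values was not tested. Of its read-length windows, 99.7% occurred in no other annotated transcript.

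Bbc3, a classical p53 target, had 10.95 and 11.3 CPM with SCF plus low TGF-β, 18.3 and 14.1 CPM with SCF plus high TGF-β, 10.5 and 8.19 CPM with SCF, 11.0 and 17.9 CPM with low and high TGF-β alone, and 6.22 and 11.2 CPM with IL-3. The libraries with SCF plus high TGF-β lay above those with SCF plus low TGF-β, SCF or IL-3, which overlapped each other in part, and no contrast called Bbc3. Pmaip1, another p53 target whose product binds MCL1, had 6.74 and 5.93 CPM with SCF plus low TGF-β, 9.83 and 11.95 CPM with SCF plus high TGF-β, 9.51 and 10.7 CPM with SCF, 6.79 and 3.89 CPM with low and high TGF-β alone, and 4.15 and 2.81 CPM with IL-3. Its IL-3 libraries were below both SCF libraries, without a call.

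Of the effector genes, Bax (ENSMUSG00000003873, chr7:45461697-45466898, minus strand) was the more abundant. It stood at 60.2 and 61.7 CPM with SCF plus low TGF-β, 58.1 and 68.4 CPM with SCF plus high TGF-β, 89.1 and 86.4 CPM with SCF, 61.1 and 47.4 CPM with low and high TGF-β alone, and 57.0 and 51.2 CPM with IL-3. The SCF libraries were the highest 2 of the 10, and the other 8 lay between 47.4 and 68.4 CPM. Bax shares 12.2% of its exon bases with Gm45808 on the same strand, which had 0 counts in every library. Bak1 had 2.55 to 18.3 CPM, with the highest value in replicate 2 of SCF and the lowest with low TGF-β alone. It was called in no contrast, and 25.5% of its exon bases lie opposite exons of Ggnbp1.

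**Figure D1:**
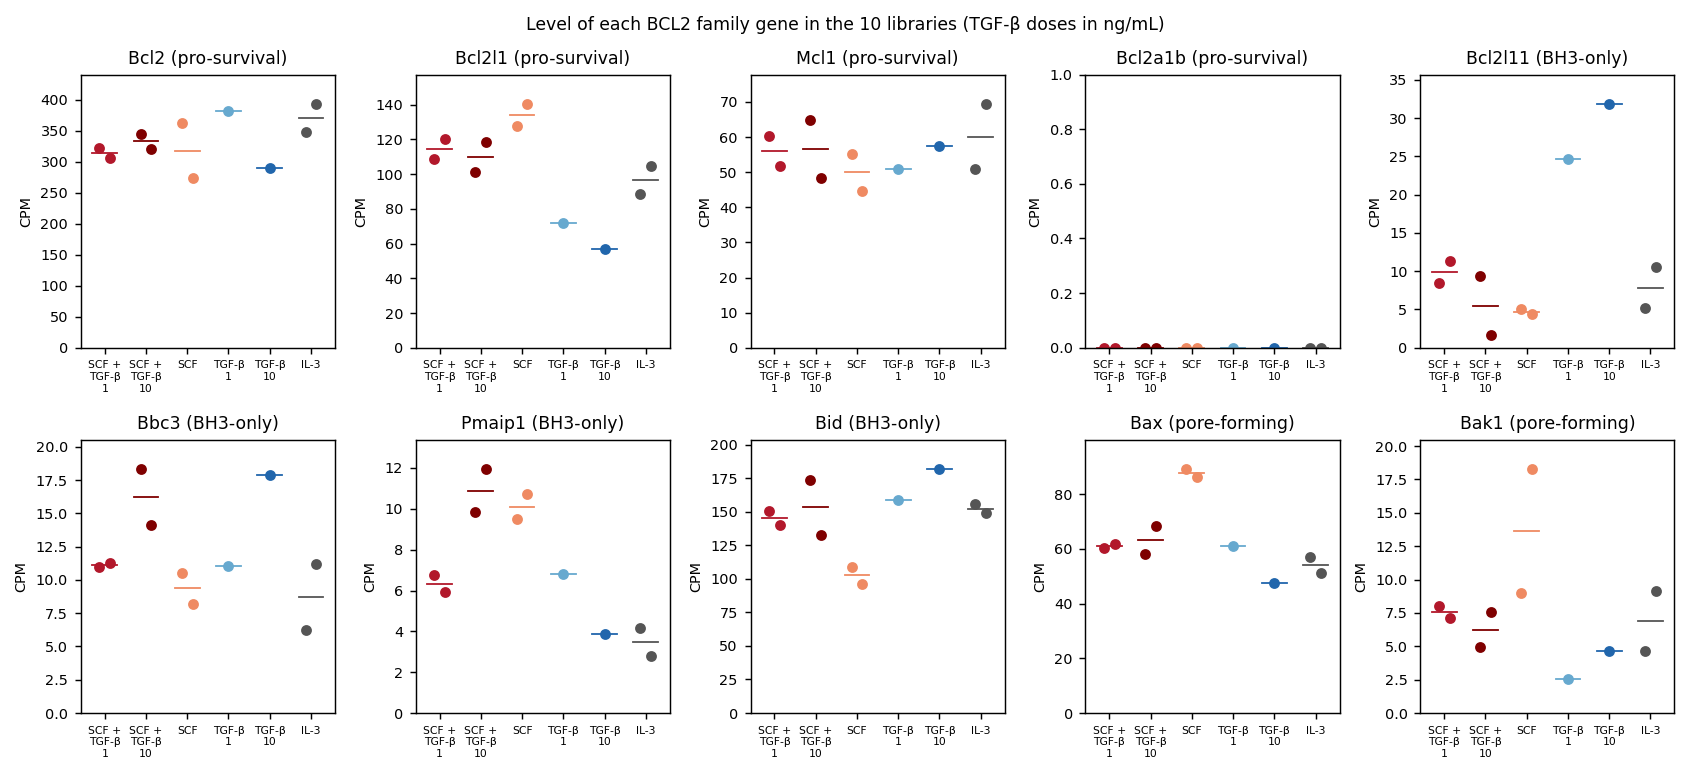
Level of each of the 10 genes in CPM (vertical axes, each from 0) in the 10 libraries, 1 point per library and a line at the group mean, with TGF-β doses in ng/mL. Bcl2l11 stands apart in both libraries with TGF-β alone (24.6 and 31.9 CPM), Bid is lowest and Bax highest in the SCF libraries, and Bcl2a1b is at 0 throughout.

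Levels of different genes were compared per kilobase of exon. The length was that of all annotated exon bases of a gene, such as 9157 for Bcl2, 8029 for Bcl2l11 and 1576 for Bax. Which transcripts were expressed was not examined, and the order of the genes depends on these lengths. Averaged over the IL-3 libraries, Bid (42.95 CPM per kb) and Bcl2 (40.5 CPM per kb) came first, then Bax (34.3 CPM per kb), Bcl2l1 (21.1 CPM per kb) and Mcl1 (17.6 CPM per kb), with Bbc3 (4.11 CPM per kb), Bak1 (2.86 CPM per kb), Pmaip1 (1.27 CPM per kb) and Bcl2l11 (0.98 CPM per kb) far below. In the IL-3 libraries, Bid and Bcl2 did not differ beyond their spread. Averaged over the SCF libraries, Bax led at 55.7 CPM per kb, ahead of Bcl2 at 34.8 CPM per kb, Bcl2l1 at 29.2 CPM per kb and Bid at 28.9 CPM per kb. With TGF-β alone, Bid led at 44.7 and 51.2 CPM per kb at 1 and 10 ng/mL.

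The summed pro-survival level per kilobase was 76.4 and 74.9 CPM per kb with SCF plus low TGF-β, 78.7 and 74.9 with SCF plus high TGF-β, 83.6 and 73.6 with SCF, 72.4 and 60.8 with low and high TGF-β alone, and 72.2 and 86.1 with IL-3. The BH3-only sum over this pro-survival sum was 0.667 and 0.646 with SCF plus low TGF-β, 0.792 and 0.650 with SCF plus high TGF-β, 0.474 and 0.482 with SCF, 0.766 and 1.07 with low and high TGF-β alone, and 0.677 and 0.577 with IL-3. The SCF libraries had the lowest 2 ratios. High TGF-β alone, with 1 library, was the one in which the BH3-only sum per kilobase exceeded the pro-survival sum. Without division by length its sums were 235 CPM for the BH3-only genes and 404 CPM for the pro-survival genes. Bcl2a1b entered all pro-survival sums as 0, although that level is uncertain. Bid made up most of the BH3-only sum, and Bcl2l11 gave 5.53% and 6.10% of it with TGF-β alone and 0.417% to 2.91% in the other 8 libraries. With Bax and Bak1 added to the pro-death side the ratio was 1.21 and 1.21 with SCF plus low TGF-β, 1.29 and 1.27 with SCF plus high TGF-β, 1.20 and 1.33 with SCF, 1.32 and 1.59 with low and high TGF-β alone, and 1.20 and 0.999 with IL-3. The SCF and IL-3 libraries then overlapped, and high TGF-β alone remained the highest. These ratios are descriptions of mRNA and carry no test.

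**Figure D2:**
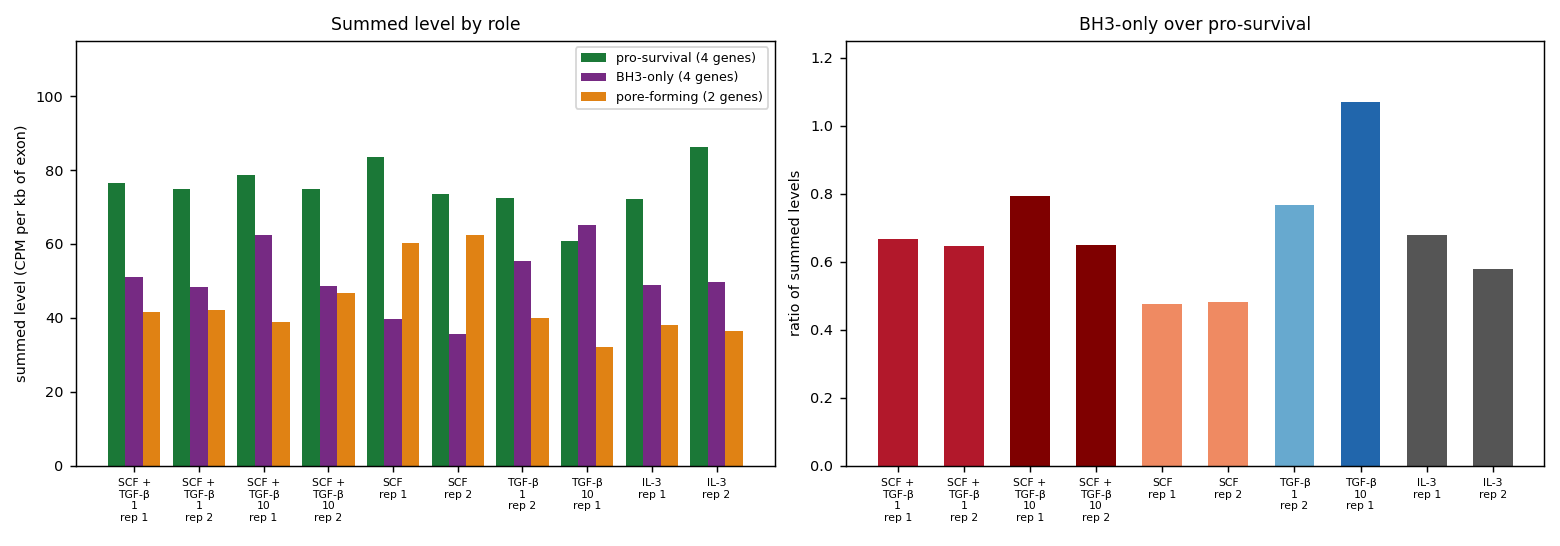
Left, summed level of the pro-survival, BH3-only and pore-forming genes in CPM per kb of exon for each library; right, the ratio of the BH3-only to the pro-survival sum, with bars from 0. The ratio is lowest in the SCF libraries (0.474 and 0.482) and highest with high TGF-β alone (1.07).

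The effect of adding SCF to cells that also received TGF-β was read from the libraries with SCF and TGF-β against those with TGF-β alone, averaging both doses. Bcl2l1 rose by a log2 fold change of 0.81 ± 0.16 (SE), that is 1.75-fold, with an adjusted p of 0.00146 in edgeR's quasi-likelihood test, and all 4 libraries with SCF lay above both without. Bcl2l11 fell by 1.89 ± 0.40 on the log2 scale, a 3.71-fold lower level (edgeR, adjusted p = 0.00262). Its 4 values with SCF and TGF-β, 1.63 to 11.3 CPM, lay below the 24.6 and 31.9 CPM of TGF-β alone. A pro-survival gene was thus higher and a pro-death gene lower, and the other 7 tested members were not called, among them Bid (-0.18, 95% interval -0.48 to 0.11), Bax (0.20, -0.14 to 0.55) and Bcl2 (-0.04, -0.32 to 0.24). The 2 calls among 9 tested members compare with 24.7% of all 11247 genes called (13.3% higher and 11.4% lower), a share close to the background. The median log2 fold change was 0.06 over the 9 members and -0.01 over all genes. Both calls passed in all 14 alternative fits, with adjusted p at most 0.0463 for Bcl2l1 and 0.0401 for Bcl2l11, in each case without the library of high TGF-β alone.

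Among other family genes, the direction of Bcl2l11 was shared by Bmf, a BH3-only relative known for cell death after loss of attachment, 1 of the 16 listed. Bmf had 4 and 1, 4 and 1, 3 and 3, 9 and 10, and 0 and 10 counts in the group order used above, at most 7.8 CPM. It was lower with SCF and TGF-β than with TGF-β alone (log2 fold change -2.59 ± 0.85, edgeR adjusted p = 0.0337). The call was lost without replicate 2 of SCF plus low TGF-β (adjusted p = 0.0652), replicate 2 of SCF plus high TGF-β (0.0763), low TGF-β alone (0.127) or high TGF-β alone (0.121). Of the 16 other family genes 8 passed the filter on low counts, and the remaining call in this comparison was Bcl2l13, a mitophagy receptor, higher by 0.69 ± 0.19 (adjusted p = 0.0144; 0.0991 in DESeq2, 0.0544 without low and 0.121 without high TGF-β alone). DESeq2 called none of the other family genes in this comparison, but it gave Bmf no adjusted p. Bmf also did not reach the alternative filter of 10 CPM. Bad, Bcl2l2 (BCL-W), Bcl2l12, Bnip1, Bnip3 and Bnip3l were not called, with log2 fold changes from -0.64 to 0.63. Bnip3l, a mitophagy gene, was the 1 call of these genes in the other contrasts: with SCF plus high TGF-β it was higher than with SCF by 0.72 ± 0.22 (adjusted p = 0.0461), a call lost without any one of the 4 libraries (0.0804 to 0.298), in DESeq2 (0.310) and in limma-voom (0.0522).

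FOXO factors and genes known as their targets were listed as the pathway nearest to Bcl2l11. With SCF and TGF-β against TGF-β alone, 6 of the 12 tested were lower and 1 was higher, where 11.4% of all genes were lower and 13.3% higher. The median log2 fold change was -0.74, against -0.01 over all genes. Txnip, an inhibitor of thioredoxin and glucose uptake, averaged 130 CPM with SCF and TGF-β and 504 CPM with TGF-β alone (-1.94 ± 0.22, edgeR adjusted p = 1.12e-05). Tsc22d3 (GILZ) averaged 44.3 CPM with SCF and TGF-β and 162 CPM with TGF-β alone (-1.84 ± 0.21). Pik3ip1, an inhibitor of PI3 kinase, and the stress gene Sesn1 were lower by 1.83 and 1.15 on the log2 scale. These 4 were past the threshold in all 14 alternatives. The higher one, named after its value was seen, was Klf2 (1.62 ± 0.56, adjusted p = 0.0454), a call lost in 8 of 14 alternatives, with 0.377 without high TGF-β alone. The list was lower in the median by 0.39 with SCF than with IL-3, but there 1 of 12, Txnip (-1.31 ± 0.27, adjusted p = 0.00589), was called. That call was lost without replicate 2 of SCF (0.0869) or replicate 2 of IL-3 (0.0847) and in DESeq2 (0.0527). Tsc22d3 was the 1 call of the list at either dose of TGF-β on SCF, lower by 1.19 ± 0.26 at 1 ng/mL (adjusted p = 0.0101; 0.155 without replicate 1 of SCF and 0.117 without replicate 2 of SCF plus low TGF-β) and by 1.37 ± 0.26 at 10 ng/mL (0.00255; 0.0534 without replicate 1 of SCF). With TGF-β alone against IL-3 none of the 12 was called in edgeR with all groups and the filter, DESeq2 or limma-voom, and 3 had an unadjusted p under 0.05. This count depended on the fit: edgeR called 3 higher with no filter and 3 higher of 11 when only these groups were fitted.

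The forkhead core letters GTAAACA were sought on both strands of the RefSeq promoter windows (300 bases around each start, GRCm38.p6). They occurred in 2 of 14 windows, 1 of Bcl2l11 and 1 of Bbc3, for the 9 members that had a window, against 3.65% of 32851 windows of all genes. The STAT letters TTCNNNGAA were in none of the 14 (8.30% of all windows), and the E box CACGTG was in 2, of Bbc3 and Bax (7.15%). A match describes letters and not a binding site. Both windows with the forkhead letters are shown because Bcl2l11 is a member the results turn on and Bbc3 is the other member with the letters, 5′ to 3′ on the gene's strand, with the match in capitals (the second on the reverse strand):
Bcl2l11 (chr2:128125788-128126087, plus strand, match from base -227): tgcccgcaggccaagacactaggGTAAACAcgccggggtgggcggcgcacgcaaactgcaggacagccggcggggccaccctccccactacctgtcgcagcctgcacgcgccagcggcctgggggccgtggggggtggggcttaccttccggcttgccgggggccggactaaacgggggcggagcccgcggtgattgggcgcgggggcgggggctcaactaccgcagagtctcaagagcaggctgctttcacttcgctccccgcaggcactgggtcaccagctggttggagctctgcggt
Bbc3 (chr7:16310011-16310310, plus strand, match from base -167): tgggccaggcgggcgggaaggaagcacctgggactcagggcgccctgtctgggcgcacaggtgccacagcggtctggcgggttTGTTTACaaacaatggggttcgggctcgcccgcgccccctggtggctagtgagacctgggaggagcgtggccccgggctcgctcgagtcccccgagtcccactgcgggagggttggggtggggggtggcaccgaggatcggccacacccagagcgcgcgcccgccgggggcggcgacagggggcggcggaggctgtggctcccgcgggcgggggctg

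Bcl2l11 was called in the contrast of SCF with TGF-β over TGF-β alone, whereas Bbc3 had a log2 fold change of -0.06 ± 0.33 there.

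**Figure D3:**
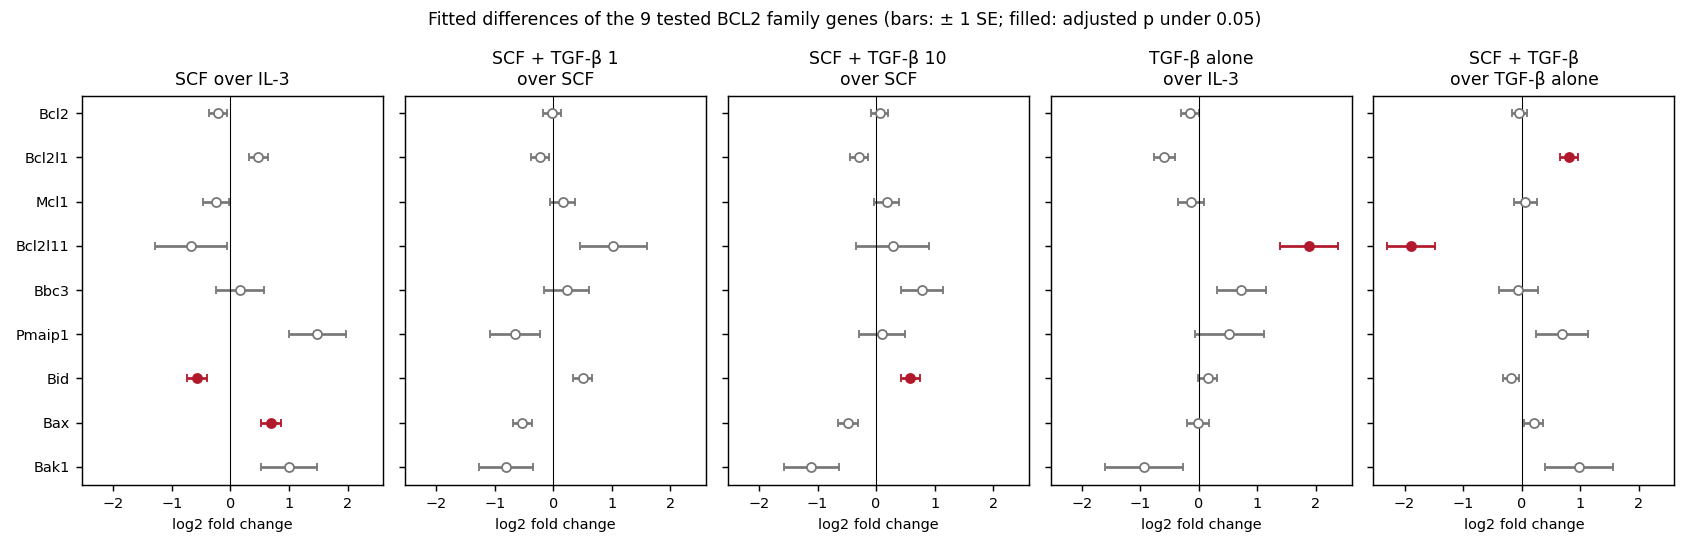
Log2 fold change (horizontal axes) of the 9 tested genes in 5 comparisons, with bars of 1 SE and filled points at an adjusted p under 0.05. Bcl2l1 (0.81) and Bcl2l11 (-1.89) are filled in the comparison of SCF with TGF-β over TGF-β alone, and Bid changes side between SCF over IL-3 (-0.57) and SCF plus high TGF-β over SCF (0.58).

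TGF-β alone, as the mean of both doses, was set against IL-3. Bcl2l11 was higher by 1.88 ± 0.50 on the log2 scale, 3.67-fold (edgeR, adjusted p = 0.0457), and both libraries with TGF-β alone lay above both with IL-3. It was the 1 call among the 9 members, where 3.48% of all genes were called (1.36% higher and 2.12% lower). The call was lost without low TGF-β alone (adjusted p = 0.0779), high TGF-β alone (0.251), replicate 1 of IL-3 (0.325) or replicate 2 of IL-3 (0.0781), under a filter of 10 CPM (0.0529) and in DESeq2 (0.204). Bcl2l1 did not pass, at -0.59 ± 0.18 (adjusted p = 0.0909). The libraries averaged here differ in dose, so their spread is not a replicate error, and it was taken from the groups with 2 libraries. The same 2 libraries, or 1 of them, were the reference in every fit of SCF and TGF-β against TGF-β alone. The opposite signs of Bcl2l11 and Bcl2l1 in both comparisons are therefore not independent of each other.

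SCF without TGF-β was set against IL-3. Bax rose 1.62-fold (log2 fold change 0.69 ± 0.17, edgeR adjusted p = 0.0204), and Bid fell by 0.57 ± 0.16 on the log2 scale (adjusted p = 0.0381). Both groups were separate for each gene. An effector gene was higher and a BH3-only gene lower, and 2 of 9 members were called, where 9.17% of all genes were (5.71% higher and 3.46% lower). The median was 0.16 over members and -0.02 over all genes. Pmaip1 (1.48 ± 0.48, adjusted p = 0.0652) and Bcl2l1 (0.48 ± 0.16, adjusted p = 0.0793) did not pass, though their SCF libraries lay above their IL-3 libraries. Bcl2l11 stood at -0.67 ± 0.62 (adjusted p = 0.555), with a 95% interval from -1.97 to 0.63. Neither call was stable when single libraries were left out. Without replicate 1 or 2 of SCF the adjusted p of Bax was 0.0764 and 0.0860, and without replicate 1 or 2 of IL-3 it was 0.0530 and 0.153. Bid gave 0.0689, 0.243, 0.134 and 0.145 in the same order, and DESeq2 gave 0.103 for Bax and 0.0934 for Bid.

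TGF-β added to SCF was set against SCF at each dose. With SCF plus high TGF-β Bid was 1.50-fold the level of SCF (0.58 ± 0.16, edgeR adjusted p = 0.0331), the 1 call among 9 members, where 8.37% of all genes were called (3.78% higher and 4.59% lower). At 1 ng/mL none of the 9 was called, where 4.64% of all genes were (1.89% higher and 2.75% lower). Yet 2 members, Bid (0.50 ± 0.16, adjusted p = 0.102) and Bax (-0.53 ± 0.17, adjusted p = 0.0983), had an unadjusted p under 0.05, and DESeq2 called none. Bax at 10 ng/mL gave -0.48 ± 0.17 (adjusted p = 0.0991). At that dose 4 members had an unadjusted p under 0.05 in edgeR, also Bbc3 (adjusted p = 0.230) and Bak1 (0.190). Over all 11247 genes, 1822 had such a p at 1 ng/mL and 2305 at 10 ng/mL. In Bid and Bax the 4 libraries with SCF and TGF-β did not overlap the SCF libraries, and the same held for Bcl2l1, Bbc3 and Bak1. The share of all genes separated in this way was not computed. The comparisons share the SCF libraries with that of SCF against IL-3, so the opposite signs for Bid and Bax are not independent of each other. The Bid call was lost without replicate 1 of SCF plus high TGF-β (0.367), replicate 1 of SCF (0.0825) or replicate 2 of SCF (0.195), and in DESeq2 (0.137).

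High and low TGF-β were compared in the presence of SCF. None of the 9 members was called, none had an unadjusted p under 0.05, and DESeq2 called none, where 0.0178% of all genes, 2 in number, were called (0.00889% in each direction). The 95% intervals of 10 over 1 ng/mL ran from -0.23 to 0.40 for Bcl2, from -0.40 to 0.27 for Bcl2l1, from -0.25 to 0.41 for Bid and from -1.88 to 0.40 for Bcl2l11. The last rests on replicate 2 at 10 ng/mL, with 3 counts, against 19 to 21 in the other 3 libraries with SCF and TGF-β.

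Whether SCF acted differently with and without TGF-β was tested by the interaction of both factors. No member was called and none had an unadjusted p under 0.05 (DESeq2 called none either), where 0.293% of all genes were called (0.116% higher and 0.178% lower). The estimate for Bcl2l11 was -1.22 with a 95% interval from -2.82 to 0.37, and for Bcl2l1 it was 0.33 with an interval from -0.15 to 0.81. The effects of SCF on both genes with TGF-β are therefore not shown to differ from those without it.

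Downstream of the family, caspase and mitochondrial channel genes were listed together. The channel genes Vdac1, Vdac2 and Vdac3 were the 3 calls among 12 genes with SCF against IL-3, all higher, by 0.60 to 0.67 on the log2 scale (edgeR), where 5.71% of all genes were higher. For all 3 the call was lost without replicate 2 of SCF or replicate 2 of IL-3, with adjusted p from 0.119 to 0.225, and for Vdac2 and Vdac3 without either replicate 1 as well. DESeq2 called none of the 3 (0.0938, 0.0607 and 0.193), and Vdac3 was not called in limma-voom (0.0512), with no filter (0.0656) or in the fit of only these groups (0.0592). Casp9, the initiator caspase of the apoptosome, fell by 0.81 ± 0.18 with SCF plus high TGF-β against SCF (adjusted p = 0.00974), a call lost without either replicate of SCF plus high TGF-β (0.0926 and 0.0545) or replicate 1 of SCF (0.0542) and in DESeq2 (0.101). With SCF and TGF-β against TGF-β alone, the same 3 channel genes were higher and Casp9 was lower, with a median of 0.09 over the 12 genes. Of all genes, 13.3% were higher and 11.4% lower there. Vdac1 was higher by 0.85 ± 0.17 (adjusted p = 0.00142) and passed in all 14 alternatives. The calls of Vdac2, Vdac3 and Casp9 there were each lost without low TGF-β alone (0.226, 0.306 and 0.162) and without replicate 2 of SCF plus low TGF-β (0.107, 0.0536 and 0.126) or of SCF plus high TGF-β (0.104, 0.0594 and 0.0697). Without high TGF-β alone, Vdac2 and Casp9 were not called either (0.0797 and 0.131), and Casp9 was also lost without replicate 1 of SCF plus high TGF-β (0.0843). DESeq2 called none of these 3 (0.0961, 0.138 and 0.226), and Casp9 was not called with no filter (0.133) or in the fit of only these groups (0.0555).

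Among 8 tested inhibitors of apoptosis, Birc3 (cIAP2) was lower by 1.29 ± 0.21 with SCF and TGF-β than with TGF-β alone (edgeR, adjusted p = 0.000327) and by 1.19 ± 0.25 with SCF plus high TGF-β than with SCF. The second call was lost without replicate 1 of either group (0.0720 and 0.0870). Birc2 (cIAP1) was lower by 0.82 ± 0.19 in the first of these comparisons, but not without high TGF-β alone (0.320). Birc5 (survivin), which is also a mitotic gene, was higher by 2.39 ± 0.33 there and by 1.62 ± 0.34 with SCF against IL-3, together with the cell cycle list, of which 16 and 12 of 16 genes were higher. Without replicate 2 of SCF or of IL-3, the SCF call of Birc5 had an adjusted p of 0.0536 or 0.0704, and in DESeq2 it was 0.0527. The median of the inhibitor list was -0.21 with SCF and TGF-β against TGF-β alone and -0.11 with SCF against IL-3. Of all genes, 13.3% were higher and 11.4% lower in the first of these, and 5.71% higher and 3.46% lower in the second.

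Targets of p53 were listed because Bbc3, Pmaip1 and Bax belong to them. With SCF against IL-3, 3 of 14 were higher and none lower, where 5.71% of all genes were higher and 3.46% lower, with a median of 0.21 against -0.02 over all genes. Ccng1 averaged 322 ± 28.6 CPM with SCF and 154 ± 24.9 CPM with IL-3 (1.05 ± 0.16, edgeR adjusted p = 0.000585) and passed in all 12 alternatives. Mdm2, the ubiquitin ligase of p53, was higher by 0.73 ± 0.16, with adjusted p of 0.0555 without replicate 2 of SCF and 0.0695 without replicate 1 of IL-3. Zmat3 was higher by 0.69 ± 0.20, a call lost without any one of the 4 libraries (0.120 to 0.156), in DESeq2 (0.189), with no filter (0.0572) and in the fit of only these groups (0.0523). With SCF and TGF-β against TGF-β alone, 6 were higher and 1 lower, where 13.3% and 11.4% of all genes were, with a median of 0.62. Mdm2 (0.90 ± 0.14) and Cdkn1a, the p21 inhibitor of cyclin-dependent kinases (0.63 ± 0.12), passed in all 14 alternatives, and Phlda3 (1.91 ± 0.41) passed except without low TGF-β alone (0.0614). Btg2, an antiproliferative gene, was the lower one (-2.95 ± 0.36), averaging 8.45 CPM with SCF and TGF-β and 69.7 CPM with TGF-β alone. It was also the 1 call for SCF plus low TGF-β against SCF (-2.05 ± 0.48, adjusted p = 0.0173), lost without replicate 2 of SCF plus low TGF-β (0.132) or replicate 1 of SCF (0.334) and in DESeq2 (0.193). With TGF-β alone against IL-3 the 1 call was Cdkn1a, lower by 0.70 ± 0.13 (adjusted p = 0.00502; 0.0907 without high TGF-β alone). Of the alternatives, no filter added 1 higher call and the fit of only these groups added 2.

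The death receptor list held 1 call, Tradd, an adaptor of the TNF receptor, higher by 0.76 ± 0.23 with SCF than with IL-3 (edgeR, adjusted p = 0.0458), which was lost without any one of the 4 libraries (0.0647 to 0.269), in DESeq2 (0.202) and limma-voom (0.0562), with no filter (0.0597) and in the fit of only these groups (0.0549). The 6 tested genes for the turnover of MCL1 and BIM proteins, such as the ubiquitin ligase gene of MCL1, gave no call in any contrast in edgeR, with 1 unadjusted p under 0.05 over the 7 contrasts.

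**Figure D4:**
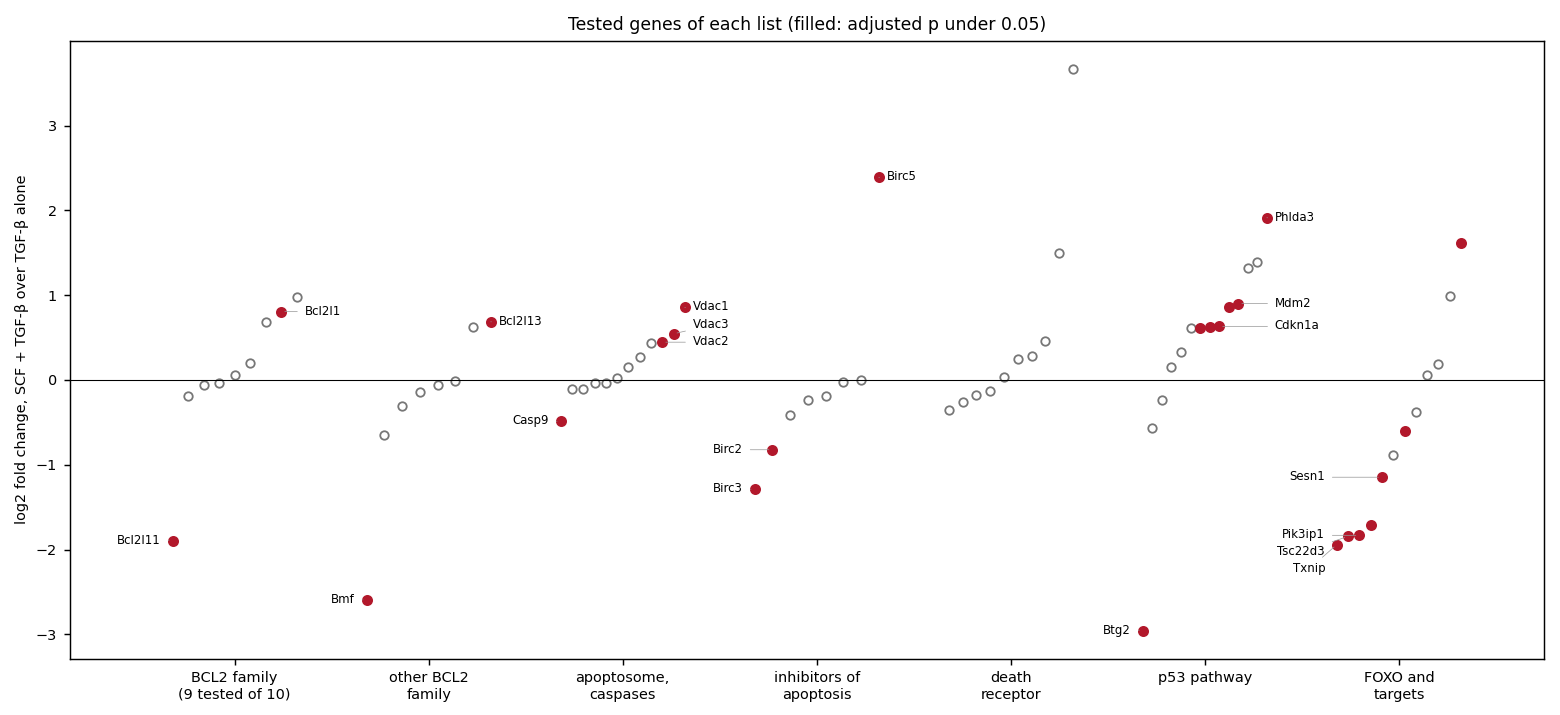
Log2 fold change of SCF with TGF-β over TGF-β alone (vertical axis) for every tested gene of 7 lists, ordered by value within each list, with filled points at an adjusted p under 0.05 and up to 4 called genes per list named. In the FOXO list 6 of 12 genes are filled below 0, with Txnip at -1.94, and Bcl2l11 (-1.89) and Bmf (-2.59) are the filled points below 0 in the BCL2 family lists.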

How the data were processed

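Per the labels' protocols, SmartSeq2 cDNA was made into Nextera XT libraries and read from both ends, 38 bases each, on a NextSeq500. No molecular identifiers are named, so intervals cover counting error and replicate spread, not amplification. The deposited values are the authors' raw counts per gene, in the unit count. The submitters' processing notes name the build GRCm38 (mm10) and the tools HTSeq, STAR and DESeq2. No source used here gives their versions or the strand setting.

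The table held 49671 gene rows and 5 rows that name no gene, which were left out. Gene rows took 16.4% to 26.6% of all counted reads per library, 37.2% to 55.6% were not uniquely aligned and 26.0% to 33.6% had no feature. These shares differed by group. Gene rows took 16.4% and 20.5% with low and high TGF-β alone, 23.0% and 19.9% with IL-3, and 23.2% to 26.6% in the libraries with SCF. The share not uniquely aligned was highest with low TGF-β alone. The part of this in the results was not tested. Identifiers, exon lengths, overlaps and transcripts came from GENCODE vM21 (GRCm38).

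Counts were fitted in R 4.3.3 with edgeR 4.0.16 (TMM, filterByExpr, quasi-likelihood F test), with 1 mean for each of 6 groups over 10 libraries and 4 residual degrees of freedom. Both groups of TGF-β alone had 1 library and took their spread from the others. The 11247 genes tested were adjusted by Benjamini-Hochberg within each of 7 contrasts, with a threshold of 0.05. The common biological coefficient of variation was 0.126. Standard errors were approximated as the log2 fold change over the root of F, and 95% intervals from them. CPM uses TMM library sizes. Of the 10 members, 9 passed the filter. Replicates differed by more than sampling noise (chi-square of 3.23 to 4.12 per gene). The procedure was tested on simulated data, with changes placed in the SCF group only and recovery scored for SCF against IL-3. Recovery in the contrasts that use TGF-β alone was not tested.

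The members and gene lists were chosen with earlier results of these data known, so no list count is independent evidence. Some genes of the caspase and lymphocyte lists are not reported here, and the counts leave them out. Named genes were all members, every tested gene of the other BCL2 family list and, from each other pathway list, up to 4 called genes per contrast with the smallest adjusted p and a mean of at least 5 CPM. The 3 promoter motifs were kept from a wider search after matches had been seen. Alternatives were DESeq2 size factors, DESeq2 1.42.0, limma-voom (limma 3.58.1), no filter, a filter of 10 CPM, a replicate block, fits without ribosomal RNA loci, fits of only the groups compared, and each library left out.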

Additional observations from a re-analysis of the deposited data

Results flagged for a closer look

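Btg2, an antiproliferative gene of the p53 list, was the 1 gene of the apoptosis lists for which the effect of SCF differed with TGF-β present, by the test of the interaction itself. The interaction was -2.67 ± 0.53 on the log2 scale (edgeR, adjusted p = 0.0409). Btg2 stood at 9.7 and 3.0 CPM with SCF plus low TGF-β, 15.2 and 6.0 CPM with SCF plus high TGF-β, 39.0 and 16.4 CPM with SCF, 50.9 and 88.6 CPM with low and high TGF-β alone, and 38.3 and 30.2 CPM with IL-3. The 4 libraries with both factors were below the other 6. The call was lost under the 10 CPM filter and without any one of 7 libraries, with adjusted p up to 0.334 without replicate 1 of SCF. Summed immediate early genes were higher in replicate 1 than in replicate 2 of all 4 groups with replicates (for SCF 3501 and 1915 CPM), and their part in this value was not tested. No group had the 4 libraries needed to test for an outlying one.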

How the results depend on the processing

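Of the 6 member calls, Bcl2l1 and Bcl2l11 with SCF and TGF-β against TGF-β alone held in all 14 alternatives, and the other 4 were each lost in 4 to 6 of 12. Among members, DESeq2 gave 0 calls for SCF against IL-3 (main value 2), 0 for SCF plus high TGF-β against SCF (1) and 0 for TGF-β alone against IL-3 (1), and the 10 CPM filter also gave 0 in the last. Over all genes DESeq2 called 471 for SCF against IL-3 (1031), 270 and 438 for low and high TGF-β on SCF (522 and 941), 225 for TGF-β alone against IL-3 (391), 1518 for SCF and TGF-β against TGF-β alone (2780) and 0 for high against low dose (2). For all genes in that dose contrast, limma-voom, the 10 CPM filter and the fit of only the groups compared gave 0, and no filter gave 8. For TGF-β alone against IL-3, all genes called were 601 with no filter and 712 in the fit of only the groups compared, and no filter gave 125 for the interaction (33). The cause was not tested.

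Same-numbered libraries deviated together in the 3 pairs of groups with SCF (r from 0.197 to 0.231, above the threshold of 0.1) but not in the 3 pairs with IL-3 (-0.00334 to 0.0215). The labels do not say what the numbers mark, so the replicates were not treated as paired, and for the groups with SCF the pairing is not settled. With a replicate block, all genes called were 859 for low TGF-β on SCF, 5 for the dose contrast, 718 for TGF-β alone and 102 for the interaction. Among members, the block gave 1 call for low TGF-β on SCF and 2 for TGF-β alone, adding Bid (adjusted p = 0.0265, edgeR) and Bcl2l1 (0.0305), and it added Bcl2l1 for SCF against IL-3 (0.0263). For TGF-β alone, the block also gave 1 higher call in each of the FOXO and p53 lists.

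Leaving out 1 library at a time gave, over all genes, 237 to 788 calls for SCF against IL-3, 252 to 361 and 447 to 625 for low and high TGF-β on SCF, 0 to 5 for the dose contrast, 143 to 259 for TGF-β alone, 1278 to 2738 for SCF and TGF-β against TGF-β alone and 0 to 30 for the interaction. Among members the counts were 0 to 0, 0 to 0, 0 to 1, 0 to 0, 0 to 0, 2 to 2 and 0 to 0 in that order. A library left alone in its group was assumed to vary like the others. Log2 fold changes that changed sign when 1 library was left out had these ranges. For SCF against IL-3, Bbc3 ran from -0.25 to 0.60. For low TGF-β on SCF, Bcl2 ran from -0.21 to 0.20. For high TGF-β on SCF, they were -0.13 to 0.28 for Bcl2, -0.053 to 0.37 for Mcl1, -1.50 to 0.98 for Bcl2l11 (also -0.11 in limma-voom) and -0.036 to 0.24 for Pmaip1. For the doses, they were -0.18 to 0.052 for Bcl2l1, -0.22 to 0.21 for Mcl1, -0.13 to 0.26 for Bid, -0.067 to 0.17 for Bax and -0.62 to 0.00065 for Bak1. For TGF-β alone against IL-3, they were -0.35 to 0.045 for Bcl2, -0.37 to 0.072 for Mcl1 and -0.19 to 0.17 for Bax. For SCF and TGF-β against TGF-β alone, they were -0.24 to 0.16 for Bcl2, -0.053 to 0.16 for Mcl1 and -0.41 to 0.29 for Bbc3. For the interaction, they were -0.027 to 0.40 for Bcl2, -0.64 to 0.20 for Bbc3 and -0.51 to 0.56 for Bak1 (also 0.0092 with the replicate block). None of these was called with all libraries.

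Members with few counts (Bcl2l11, Bbc3, Pmaip1 and Bak1) are limited by depth, since 3 counts equal 1.29 to 2.42 CPM. The alternative without repeat loci was run for 532 ribosomal RNA loci only, because satellite loci are not marked in the annotation used. DESeq2 gave no adjusted p for 10 member values.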
